A study of Mus musculus with 6 samples.

Results

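The genes described here are 10 genes of the hypoxia-inducible factor (HIF) pathway, which senses oxygen. They are *Hif1an*, *Hif1a*, *Epas1*, *Arnt*, *Egln1*, *Egln2*, *Egln3*, *Vhl*, *Vegfa* and *Slc2a1*. They were chosen by name, and every array probe whose RefSeq accession belongs to one of these symbols was taken. This gave 16 probes, at least 1 for each gene, among 23462 genes with a matched probe. After spots that the scanner software had marked as unreliable were left out, 14 probes of 9 genes had enough values for a test, among 14712 genes tested. *Egln1*, the gene without a test, is described from its marked spots.

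The data are mRNA levels in brown adipose tissue (BAT), the heat-producing fat of mammals, of 3 wildtype (WT) mice and 3 miR-22 knockout (KO) mice. All were males of 8 weeks. The KO allele is global, so that miR-22 was missing from every cell type of the tissue and from the rest of the body, and BAT of adipocyte-specific knockouts was not measured on these arrays. RNA of 1 mouse per array was labelled with Cy3 and hybridised to Agilent mouse gene expression arrays, in which the brightness of a spot follows the amount of the transcript that its probe binds. The text on the study design also speaks of a flow separation of the samples before RNA was taken, without naming a gate.

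HIF is a transcription factor made of an oxygen-regulated alpha subunit, encoded by *Hif1a* or *Epas1*, and a constant partner encoded by *Arnt*. When oxygen is plentiful, the prolyl hydroxylases encoded by *Egln1*, *Egln2* and *Egln3* modify the alpha subunit, the VHL protein recognises the modified form, and the subunit is destroyed. The asparaginyl hydroxylase encoded by *Hif1an* acts apart from this, by keeping the alpha subunit from binding its coactivators. When oxygen is short, HIF turns on genes for glucose uptake, glycolysis and blood vessel growth, among them *Slc2a1* and *Vegfa*, and also genes of its own brakes such as *Egln3*. Much of this control acts on the HIF protein, which an mRNA array does not measure.

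The study treats *Hif1an* as a direct target of miR-22. The paper reports higher *Hif1an* mRNA by qRT-PCR and more of its protein in BAT of KO mice. It also reports direct repression in reporter assays, and *Hif1an* changes with a miR-22 inhibitor and with mimics in cultured brown adipocytes. Hif1α protein is reported as lower in BAT of global and of adipocyte-specific knockouts. Knockdown of *Hif1an* in KO cells is reported to rescue thermogenic and glycolytic genes. The comparison here asked whether the mRNA of *Hif1an* and of the rest of the pathway stood at another level in BAT without miR-22. Protein and direct repression lie outside what these arrays measure. A microRNA finds target transcripts mainly through its seed, bases 2 to 8 from its 5′ end, shown in capitals below in the RefSeq sequences of both arms of miR-22 (GRCm38.p6). They are shown because these are the RNAs that the KO mice lack.
miR-22-3p (chr11:75463772-75463793, plus strand): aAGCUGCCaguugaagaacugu
miR-22-5p (chr11:75463734-75463755, plus strand): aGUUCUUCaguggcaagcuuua
A transcript stretch that pairs with the whole seed of miR-22-3p reads GGCAGCU. Where such stretches lie in *Hif1an* was not analysed here, since no transcript sequences were at hand. The level of the mature miR-22 was not analysed here. Its host transcript *Mir22hg* had a mean of 1.37 ± 0.28 (SD, n = 3) in WT and of 2.12 ± 0.11 (SD, n = 3) in KO mice on the scale defined below, and whether its probe lies within the deleted stretch is not known, so this transcript does not check the genotype.

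All values below are scaled log2 signals, in which 0 is the 75th percentile of the array and each step of 1 doubles the signal. Differences are KO minus WT on the same log2 scale. Levels of different probes are not comparable, since probes differ in how they bind. On the 6 arrays, 55.8 to 66.5% of the spots other than controls exceeded background clearly, none was saturated, and all 16 probes of the pathway genes were well above background on all 6 arrays. The share of marked spots was 17.1% in WT3 and 15.1% in KO1, against 4.87 to 6.12% on the other arrays. WT1 and WT2 lay in the first row of the slide, and WT3 and all KO mice in the other row. The tissue carried its defining transcripts, with *Ucp1* at 32.0 to 57.5 and *Adipoq* at 33.3 to 53.3 times the 75th percentile of the array. Signal of other cell types varied between mice. Over 20 skeletal muscle markers, 13 of them above background on all arrays, the mean signal was 2.38, 1.60 and -3.94 in WT1 to WT3 and 0.17, 3.33 and 1.48 in KO1 to KO3. Of 10 lymphocyte markers, 8 were above background on any array and 5 on all arrays. The mean of these 8 ranged from -4.80 to -4.28 in WT and from -4.15 to -3.83 in KO mice. The mean of 10 macrophage markers ranged from 1.03 to 1.24 in WT and from 1.21 to 1.49 in KO mice. That of 12 brown adipocyte markers ranged from 2.80 to 3.06 in WT and from 2.38 to 2.85 in KO mice. The ranges of all-adipocyte, nerve, endothelial and erythroid markers also overlapped between the groups. Since each array measured RNA of a mixture of cells, fewer cells of a type and less RNA per cell cannot be told apart.

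Across the pathway, the difference of *Hif1an* was small and its groups overlapped, *Egln3* was higher in KO mice, and *Egln2* and *Vhl* were lower. Of the 9 genes tested, 1 was higher at an unadjusted p under 0.05, where 10.03% of all 14712 genes were, and 2 were lower, where 8.81% of all genes were. None had an adjusted p under 0.05, the adjustment being over all genes tested, of which 0.184% did. The median difference of the 9 genes was -0.19, with 3 above 0 and 6 below 0, against a median of -0.03 over all genes tested. Among the 7 genes with an unmarked value in every mouse, none had all KO mice above all WT mice and 2 had all KO mice below, where the shares over 11577 genes with such values were 14.2 and 14.7%.

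**Figure D1:**
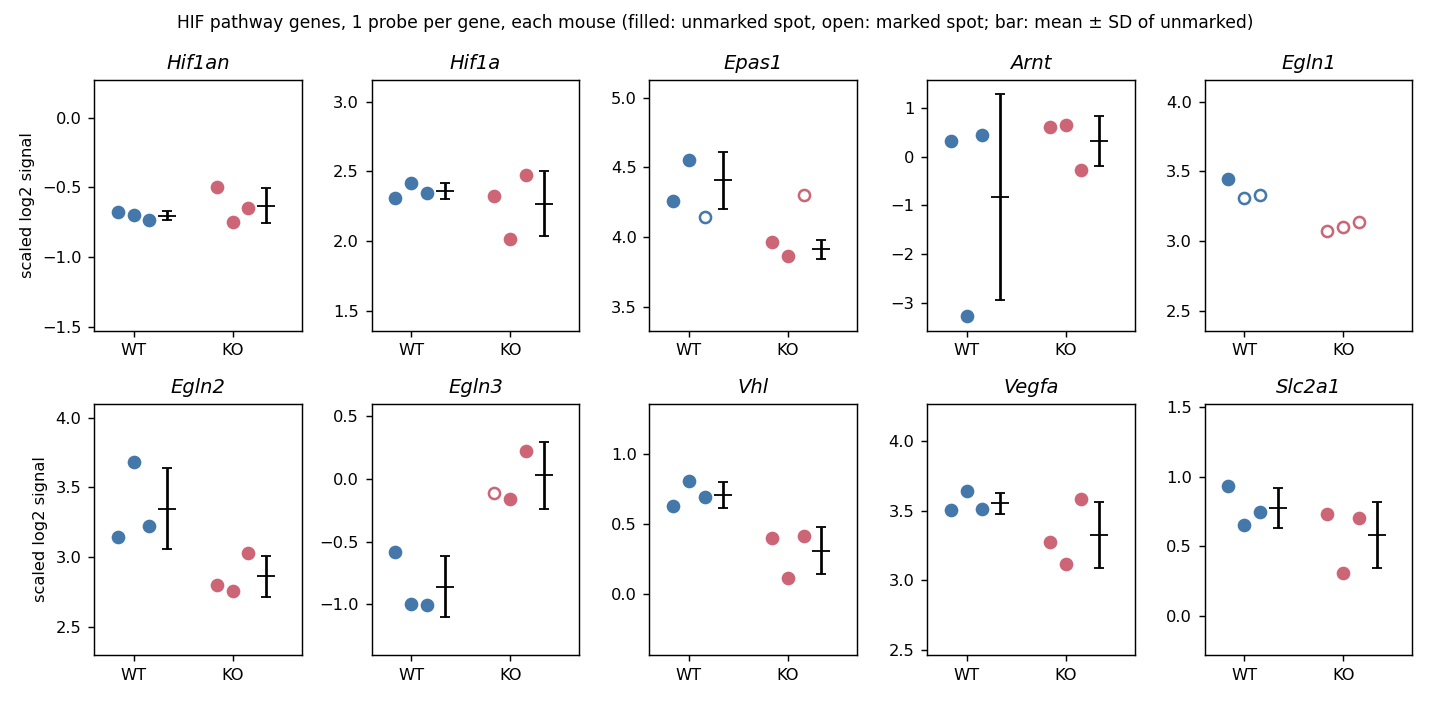
Scaled log2 signal (y axis) of each of the 10 pathway genes in the 3 WT (blue) and 3 KO (red) mice, with 1 probe per gene, where filled points are unmarked spots, open points are spots marked by the scanner software, and bars are the mean ± SD of unmarked spots. The KO mice lie above the WT mice for *Egln3* and below them for *Egln1*, *Egln2* and *Vhl*, while *Hif1an* overlaps, and *Arnt* has 1 WT mouse at -3.27.

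*Hif1an* encodes the asparaginyl hydroxylase that restrains HIF. Its brighter probe (A_51_P521171) read -0.68, -0.70 and -0.74 in WT1 to WT3, and -0.50, -0.75 and -0.65 in KO1 to KO3. KO2 lay below every WT mouse and the other KO mice above them, and the KO mice spread over a wider range than the WT mice. The group means were -0.70 ± 0.03 (SD, n = 3) in WT and -0.63 ± 0.13 (SD, n = 3) in KO mice. The difference of 0.071 (SE 0.13, 95% confidence interval -0.24 to 0.38) did not pass the threshold (limma, adjusted p = 0.782). As a ratio of KO to WT this was 1.05, with an interval of 0.847 to 1.30. The paper reports a marked rise of this mRNA by qRT-PCR, and why the arrays gave no such rise was not tested.

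The other probe of *Hif1an* (A_52_P49233) gave a like result. It read -2.15, -2.31 and -2.18 in WT and -2.01, -2.43 and -1.98 in KO mice, again with KO2 lowest of all mice. Its difference was 0.075 (SE 0.18, limma on probes, adjusted p = 0.853). The difference of *Hif1an* lay between 0.0055 and 0.13 under all 20 alternative settings and passed the unadjusted threshold under none of them. Its adjusted p ranged from 0.659 to 0.987 over those settings.

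The 5 genes whose levels followed *Hif1an* most closely over the 6 arrays, among 9574 genes above background with 6 unmarked values, were *Nod2* with a Pearson's r of 0.981, *Nfat5* with 0.977, *Ier2* with 0.974, *Cabp1* with 0.972 and *Bin3* with 0.958. *Nod2* is an intracellular sensor of bacterial wall fragments, *Nfat5* a transcription factor of the response to osmotic stress and *Ier2* an immediate early gene. With 6 points chosen as the highest of so many genes, these values describe the likeness and test nothing. The differences between KO and WT mice of these 5 genes ranged from 0.07 to 0.36, and none passed the unadjusted threshold.

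The subunits of HIF gave no difference beyond the spread between mice. *Hif1a* read 2.31, 2.42 and 2.34 in WT and 2.32, 2.01 and 2.47 in KO mice. KO2 was the lowest mouse, KO3 the highest, and the groups overlapped. The difference was -0.088 (SE 0.16, 95% confidence interval -0.46 to 0.29, limma, adjusted p = 0.777). Its sign turned under quantile normalization, at 0.060, and without KO2, at 0.040. The paper reports less Hif1α protein in BAT of KO mice, which these mRNA values do not measure.

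*Epas1*, which encodes the alpha subunit of HIF-2, had 2 unmarked values in each group. They were 4.26 and 4.55 in WT1 and WT2, and 3.96 and 3.87 in KO1 and KO2. The marked spots read 4.14 in WT3 and 4.30 in KO3, so that the groups were apart without them and overlapped with them. The difference was -0.49 without the marked spots (SE 0.20, limma, adjusted p = 0.276) and -0.28 with them (adjusted p = 0.402). Neither passed the unadjusted threshold, which the first did with SAM and with a filter of all 6 arrays. With quantile normalization it was -0.086, and its sign turned with normexp background correction followed by quantile normalization, at 0.067.

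*Arnt*, the partner of both alpha subunits, was measured by a pair of probes that gave different pictures. The brighter probe (A_55_P2100895) read 0.32, -3.27 and 0.45 in WT and 0.60, 0.64 and -0.27 in KO mice. WT2 stood far below every other mouse. The difference was 1.16 (SE 0.96, limma, adjusted p = 0.534). Without WT2 the difference was -0.061. The other probe (A_55_P2814820) read -2.61, -2.40 and -2.48 in WT and -2.23, -2.87 and -2.45 in KO mice, with WT2 among the others and a difference of -0.016 (SE 0.20, limma on probes, adjusted p = 0.975). The spot of WT2 on the brighter probe was not marked by the scanner software.

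The values of the prolyl hydroxylases, the oxygen sensors of the pathway, stood on both sides of 0, and none passed the adjusted threshold. *Egln3* was higher in KO mice, and *Egln2* was lower. *Egln3* is itself a well known target of HIF and is strongly induced by hypoxia in many cells. It read -0.58, -0.99 and -1.01 in WT1 to WT3. In KO mice it read -0.11 in KO1, where the spot was marked, -0.16 in KO2 and 0.22 in KO3. Every KO mouse lay above every WT mouse, with the marked spot or without it.

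The means of *Egln3* were -0.86 ± 0.24 (SD, n = 3) in WT and 0.03 ± 0.27 (SD, n = 2) in KO mice. The difference was 0.89 (SE 0.22, 95% confidence interval 0.36 to 1.42), or 1.85-fold with an interval of 1.28 to 2.68 (limma, adjusted p = 0.130), which passed the unadjusted threshold. With the marked spot kept it was 0.84 (SE 0.18, adjusted p = 0.0911). It passed the unadjusted threshold in all 18 alternative settings in which it could be tested, with differences of 0.81 to 1.04, and the adjusted threshold in none of them, with adjusted p of 0.0599 to 0.511. Leaving out KO2 or KO3 left 1 unmarked KO value, and no test was made there. With slide row as a block, where WT3 alone stands for WT beside the KO mice, the difference was 1.04 (adjusted p = 0.511). With the skeletal muscle mean as a covariate it was 0.83 (adjusted p = 0.235). The lymphocyte marker means of the groups did not overlap either, and their part in the differences of *Egln3*, *Egln2* and *Vhl* was not tested. These markers were dim, and the median difference of the dimmest class of genes was 0.14, as given below. Whether the scaling had a part in these marker means was not tested.

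*Egln2* was lower on both of its probes. The brighter probe (A_55_P1960924) read 3.14, 3.68 and 3.22 in WT and 2.80, 2.75 and 3.03 in KO mice, and every KO mouse lay below every WT mouse. The means were 3.35 ± 0.29 (SD, n = 3) and 2.86 ± 0.15 (SD, n = 3). The difference was -0.49 (SE 0.19, 95% confidence interval -0.93 to -0.05, limma, adjusted p = 0.232), a ratio of 0.714, and it passed the unadjusted threshold. The other probe (A_55_P2005330) read 1.88, 2.04 and 1.84 in WT and 1.72, 1.62 and 1.66 in KO mice, again without overlap, with a difference of -0.25 (SE 0.15, limma on probes, adjusted p = 0.425). WT2 was the highest mouse on both probes, and without WT2 the difference of the brighter probe was -0.32. The gene passed the unadjusted threshold in 8 of 20 alternative settings. The call was lost without WT2, KO1 or KO2, with slide row as a block (-0.36, adjusted p = 0.714), with the muscle covariate (-0.51), with no filter on dim probes, with SAM and with the methods' t-test. It was also lost with quantile normalization, with or without marked spots, and in the authors' table, at -0.28 in each, and with normexp, at -0.26. The difference stayed below 0 in all 20, from -0.59 to -0.26, with adjusted p of 0.166 to 0.714.

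*Egln1*, the main HIF hydroxylase of most tissues at normal oxygen, was measured by 1 probe whose spot was marked on 5 of 6 arrays. It read 3.44 in WT1, where the spot was unmarked, and 3.31 and 3.33 in WT2 and WT3. The KO mice read 3.07, 3.10 and 3.14, all of them below all WT mice. With the marked spots kept the difference was -0.26 (SE 0.12, 95% confidence interval -0.54 to 0.03, limma, adjusted p = 0.276), which did not pass the unadjusted threshold. With quantile normalization added it was -0.041 (adjusted p = 0.897).

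**Figure D2:**
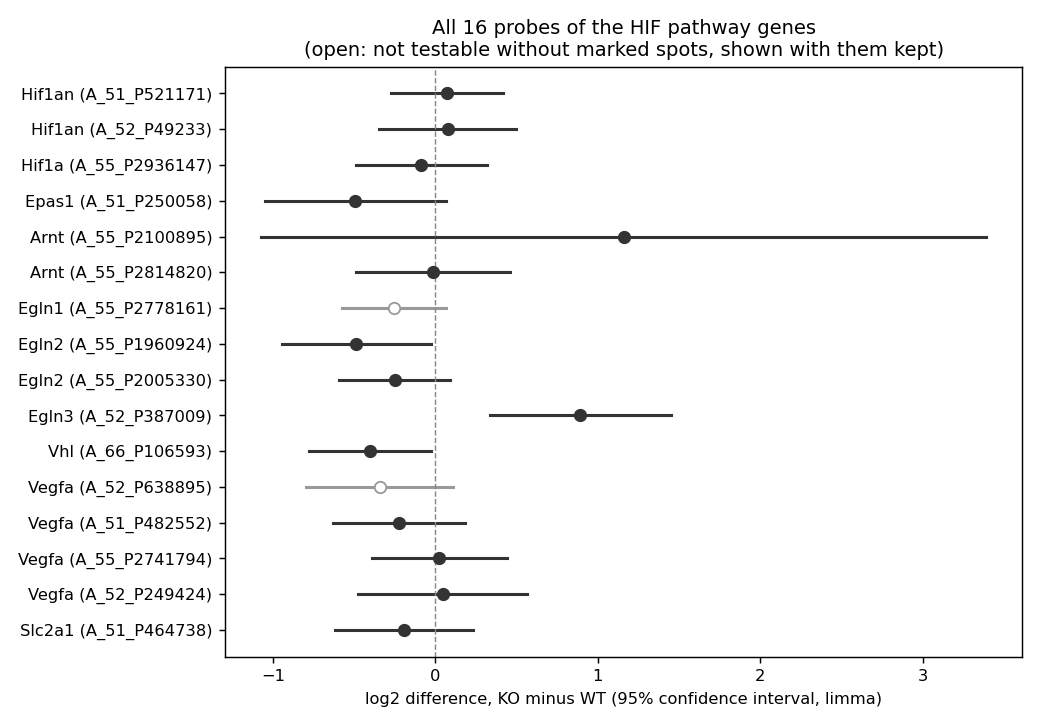
Log2 difference between KO and WT mice (x axis) with its 95% confidence interval from limma on probes, for all 16 probes of the 10 genes, where open points are probes that could be tested only with marked spots kept. The interval lies above 0 for *Egln3* and below 0 for *Vhl* and the brighter probe of *Egln2*, and the interval of the brighter *Arnt* probe is the widest of all.

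HIF binds DNA at a core of ACGTG or GCGTG, and these letters were searched on both strands in the RefSeq promoters of the pathway genes, each reaching from 250 bases before to 50 bases after a start (GRCm38.p6). Promoters were listed for 9 of the genes, 11 promoters in all, and *Epas1* was not listed. ACGTG stood in 6 of the 11, belonging to 6 genes, where 19.6% of 32851 promoters held it. GCGTG stood in 6 of the 11, belonging to 5 genes, where 32.4% of all promoters held it. A match to ACGTG on 1 strand can overlap a match on the other, as it does in *Hif1a*. *Egln1* and *Egln3* held ACGTG once, and *Egln2* held it 3 times in 1 of its 2 promoters. For each gene of the *Egln* family the match that lies before the start with its flanks is shown, because these genes differed in the direction of their values in KO mice. The motif is in capitals, read along the strand of the gene.
*Egln1* (chr8:124949308-124949332, minus strand): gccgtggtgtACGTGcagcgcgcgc
*Egln2* (chr7:27166836-27166860, minus strand): cctcctgtcaACGTGcggttcgcgc
*Egln3* (chr12:54204089-54204113, minus strand): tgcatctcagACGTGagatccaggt
The motif shown began 68, 48 and 229 bases before the start of *Egln1*, *Egln2* and *Egln3*. *Hif1a*, *Vegfa* and *Slc2a1* also held ACGTG, and *Hif1an* and *Vhl* held neither motif in this window. Thus genes with the motif stood on both sides of 0, and a match describes the letters only and says nothing about binding of HIF.

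*Vhl*, which encodes the protein that recognises the hydroxylated alpha subunits, was lower in KO mice. It read 0.63, 0.81 and 0.69 in WT and 0.40, 0.11 and 0.41 in KO mice, and every KO mouse lay below every WT mouse. The means were 0.71 ± 0.09 (SD, n = 3) and 0.31 ± 0.17 (SD, n = 3). The difference was -0.40 (SE 0.15, 95% confidence interval -0.75 to -0.06, limma, adjusted p = 0.216), a ratio of 0.757 with an interval of 0.597 to 0.961. It passed the unadjusted threshold, and did so in 14 of 20 alternative settings, with differences of -0.45 to -0.30 and adjusted p of 0.139 to 0.659 over all 20. The exceptions were SAM, slide row as a block, the skeletal muscle mean as a covariate, and leaving out WT2, WT3 or KO2. In these the difference was between -0.41 and -0.30.

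The classical targets *Vegfa* and *Slc2a1* did not differ beyond the spread between mice. *Vegfa*, which encodes the main growth factor of blood vessels, was covered by 4 probes. The probe that stood for the gene (A_51_P482552) read 3.50, 3.64 and 3.51 in WT and 3.27, 3.12 and 3.58 in KO mice. KO1 and KO2 lay below the WT mice and KO3 among them. The difference was -0.23 (SE 0.16, 95% confidence interval -0.61 to 0.15, limma, adjusted p = 0.466). With quantile normalization it was -0.0016, and its sign turned with normexp background correction followed by quantile normalization, at 0.096.

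The other *Vegfa* probes gave differences of either sign. A_52_P249424 read 1.45, 1.54 and 1.36 in WT and 1.31, 1.23 and 1.95 in KO mice, with KO3 highest and a difference of 0.044. A_55_P2741794 read 2.16, 2.05 and 2.17 in WT, the last from a marked spot, and 2.11, 2.06 and 2.21 in KO mice, with a difference of 0.023. A_52_P638895 had marked spots in WT3, KO1 and KO2 and could be compared only with them. It then gave 3.73, 3.87 and 3.56 in WT and 3.18, 3.25 and 3.70 in KO mice, a difference of -0.34 (limma on probes, adjusted p = 0.388). KO3 was the highest KO mouse on all 4 probes.

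*Slc2a1*, which encodes the glucose transporter GLUT1, read 0.93, 0.65 and 0.75 in WT and 0.73, 0.31 and 0.70 in KO mice. KO2 was the lowest mouse, and the groups overlapped. The difference was -0.19 (SE 0.17, 95% confidence interval -0.59 to 0.21, limma, adjusted p = 0.549), with a range of -0.27 to -0.06 over the 20 alternative settings.

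**Figure D3:**
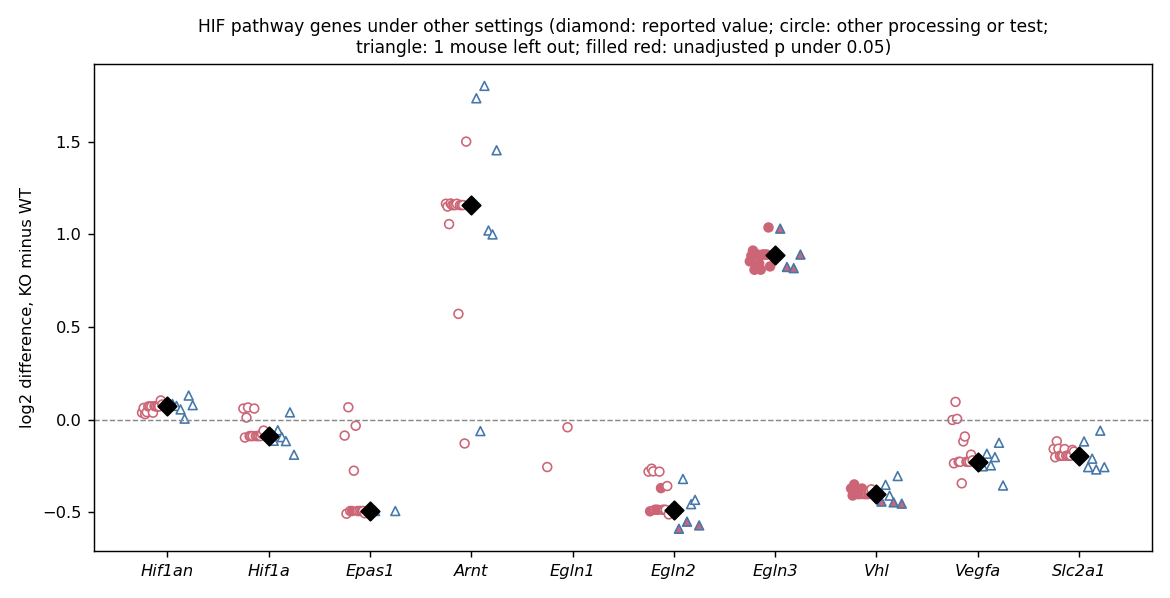
Log2 difference between KO and WT mice (y axis) of each pathway gene as reported (diamonds), under other processing or tests (circles) and with 1 mouse left out (triangles), with filled red symbols for an unadjusted p under 0.05. *Egln3* stays between 0.81 and 1.04 and *Hif1an* between 0.0055 and 0.13, while *Hif1a*, *Epas1*, *Arnt* and *Vegfa* have values on both sides of 0.

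The scaling bears on the bright genes of the pathway, and on dim genes in the other direction. All 14712 tested genes were ordered by mean signal and split into 10 classes of equal size, from 1, the dimmest, to 10, the brightest. The median difference was 0.14 in class 1 and -0.27 in class 10, and with quantile normalization these medians were -0.11 and -0.052. *Egln2*, *Epas1* and *Vegfa* lay in class 10, and *Hif1a* in class 9, where the median was -0.17. *Hif1an*, *Arnt* and *Egln3* lay in class 6, with a median of -0.0069, and *Slc2a1* and *Vhl* in class 7, with a median of -0.080. The values of *Egln2* and *Epas1* were -0.49 for each, beside the median of -0.27 of equally bright genes, and with quantile normalization they were -0.28 and -0.086. What part of them goes with the scaling was not tested. *Egln3* and *Vhl* moved less with the scaling, from 0.89 to 0.85 and from -0.40 to -0.37, and passed the unadjusted threshold under both.

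**Figure D4:**
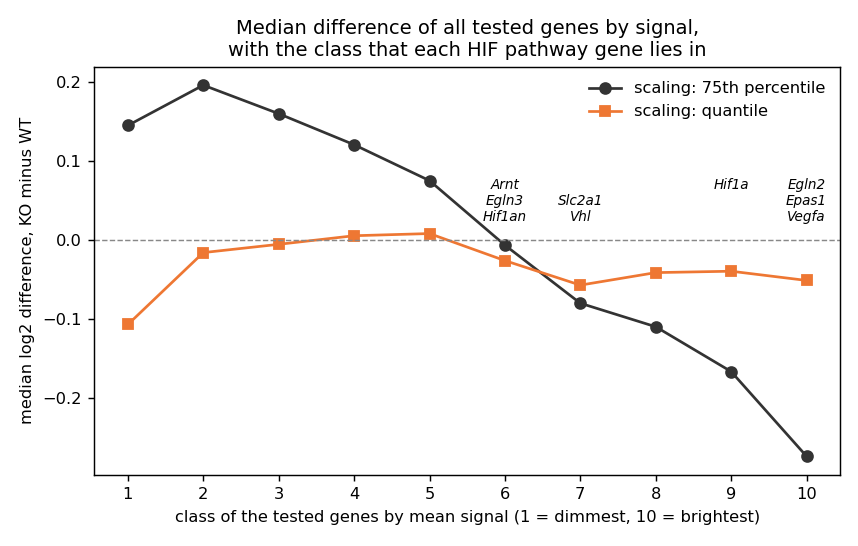
Median of the log2 difference KO minus WT (y axis) over all tested genes in 10 classes of mean signal (x axis, 1 dimmest, 10 brightest), with scaling to the 75th percentile (black circles) and with quantile normalization (orange squares), and the class in which each pathway gene lies. The black line falls from 0.14 in class 1 to -0.27 in class 10, where *Egln2*, *Epas1* and *Vegfa* lie.

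Other genes that regulate HIF, and further genes that HIF turns on, were read from 3 lists without the 10 genes above. Of 20 regulators, 14 were tested, 1 was higher and 2 were lower at the unadjusted threshold, and the median difference was -0.23. Of 19 targets in glucose uptake and glycolysis, 16 were tested, 4 were higher, 1 was lower, and the median was -0.36. Of 38 other targets, 33 were tested, 2 were higher, 5 were lower, and the median was -0.14. The shares of all genes at this threshold were 10.03% higher and 8.81% lower, and the median of all genes was -0.03. None of the genes of the lists passed the adjusted threshold. Over all 63 tested genes of the lists the median was -0.20, and with quantile normalization it was -0.097.

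Among the regulators, *P4htm*, a membrane prolyl hydroxylase that also acts on HIF, read -1.20, -1.05 and -1.11 in WT and -1.57, -1.72 and -1.68 in KO mice. All KO mice were below all WT mice, and the difference was -0.54 (limma, adjusted p = 0.113). *Siah1a*, a ubiquitin ligase that acts on prolyl hydroxylases, differed by -0.50 (adjusted p = 0.247). *Hif3a*, a further alpha subunit of which some forms oppose HIF, was near the limit of detection, above background on 5 arrays, and differed by 0.55 (adjusted p = 0.221). *Cited4*, a coactivator-binding protein, had the highest value of the list at 0.58 and did not pass the unadjusted threshold (adjusted p = 0.499). *Arnt2*, *Cited2*, *Eloc*, *Ep300*, *Hsp90aa1* and *Sart1* had too few unmarked or bright values for a test.

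The paper reports glycolysis among the pathways enriched in the genes lower in KO mice on these arrays. It also reports lower *Hk2*, *Gpi*, *Pfkl* and *Pfkp* mRNA by qRT-PCR and a lower glycolytic activity of KO BAT. The list here is of HIF targets and is not that pathway. Of its 16 tested genes, 4 were higher and 1 was lower at the unadjusted threshold. *Aldoc*, an aldolase known best from brain, had the largest difference. It read -1.90, -1.37 and -1.60 in WT and -0.62, 0.11 and 0.27 in KO mice, without overlap, a difference of 1.54 (SE 0.27, limma, adjusted p = 0.0686). *Slc2a3*, which encodes the glucose transporter GLUT3, read -4.12, -5.02 and -4.16 in WT and -3.32, -3.34 and -3.80 in KO mice, a difference of 0.95 (adjusted p = 0.155). *Pfkfb4*, which makes and removes the activator of phosphofructokinase, differed by 0.55 (adjusted p = 0.158), and *Pdk1*, a kinase that closes the entry of pyruvate into mitochondria, by 0.39 (adjusted p = 0.251). In the other direction, *Pfkl*, the liver-type phosphofructokinase, differed by -0.64 (adjusted p = 0.146), with all KO mice below all WT mice. In all, 10 of the 16, or 62.5%, lay below 0, where 52.9% of all genes tested did. Of these 10, 9 did not pass the threshold, among them *Gpi1* at -0.47, *Pfkp* at -0.45 (2 unmarked values per group) and *Hk1* at -0.39. The median of these targets depended on the scaling, at -0.36 as reported and -0.060 with quantile normalization, where 9 lay below 0. *Hk2*, *Ldha* and *Pgk1* could be tested only with marked spots kept. There 15 of 19 of these targets, or 78.9%, lay below 0, where 55.9% of all genes did, and the median was -0.32. With quantile normalization added, 11 of 19 lay below 0, and the median was -0.099. Over these settings *Hk2* ranged from -0.13 to 0.095, *Ldha* from -0.37 to -0.11 and *Pgk1* from -0.17 to 0.078.

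Among the other targets, *Ankrd37*, an ankyrin repeat protein gene known as a HIF target, had the lowest value. It read 0.51, -0.59 and -0.19 in WT and -1.41, -1.65 and -1.90 in KO mice, a difference of -1.56 (SE 0.29, limma, adjusted p = 0.0743). *Hmox1*, the heme-degrading enzyme, differed by -1.07 (adjusted p = 0.257) with overlapping groups, *Bhlhe40*, a transcription factor, by -0.79 (adjusted p = 0.183, 2 unmarked values per group), *P4ha2*, a collagen prolyl hydroxylase, by -0.68 (adjusted p = 0.147), and *Ccng2*, a cyclin of resting cells, by -0.49 (adjusted p = 0.246). *Car9*, a carbonic anhydrase widely used as a hypoxia marker, was higher. It read -3.87, -4.36 and -3.66 in WT and -2.87, -3.07 and -3.30 in KO mice, a difference of 0.88 (adjusted p = 0.120). *Wsb1*, a ubiquitin ligase adaptor, differed by 0.57 (adjusted p = 0.246). *Adm*, *Car12*, *Fam162a*, *Mxi1* and *Plod1* had too few unmarked or bright values for a test as reported. Genes known to be turned on by HIF thus stood on both sides of 0, with *Egln3*, *Aldoc* and *Car9* among the higher and *Ankrd37*, *P4ha2* and *Pfkl* among the lower. Under this scaling dim genes of the array leaned above 0 and bright genes below it. *Slc2a3*, *Car9* and *Pdk1* were dim, with WT means of -4.43, -3.96 and -2.04. *P4ha2* and *Pfkl* were bright, at 2.45 and 2.86. *Aldoc* and *Ankrd37*, with the largest differences of the lists, had WT means of -1.62 and -0.09. *Egln3* lay in class 6, where the median difference was -0.0069. With quantile normalization *Car9* was 0.71, *Pdk1* 0.30, *P4ha2* -0.52 and *Ankrd37* -1.61, and of these only *Pdk1* lost its call. What part of the split goes with the scaling was not tested.

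Under the alternative settings these calls held to different degrees. *P4htm*, *Aldoc* and *Ankrd37* passed the unadjusted threshold in all 20, *Pfkfb4*, *Pfkl* and *Car9* in 19, and *Slc2a3* in 18 of them. With slide row as a block, *Pfkfb4* (0.45, adjusted p = 0.640), *Pfkl* (-0.54, adjusted p = 0.634), *Car9* (0.58, adjusted p = 0.634) and *Slc2a3* (0.68, adjusted p = 0.653) lost the call. With normexp the difference of *Car9* fell to 0.48, still past that threshold, and that of *Slc2a3* to 0.48, no longer past it. *P4ha2* passed it in all 17 settings and *Bhlhe40* in 11 of 14 settings in which they could be tested, the calls of *Bhlhe40* being lost with marked spots kept (-0.56), also with quantile normalization (-0.49), and with the methods' t-test. *Aldoc* and *Ankrd37* each passed the adjusted threshold in 2 settings, with adjusted p of 0.0174 to 0.436 and of 0.0262 to 0.489 over all 20. *Siah1a* passed the unadjusted threshold in 10 of 20 settings, *Hmox1* and *Wsb1* in 7, *Ccng2* in 6, *Pdk1* in 5 and *Hif3a* in 6 of 19, and each of these lost its call without any of 4 or 5 single mice. *Ccng2* turned sign with the mean over all its probes, at 0.049. *Pdk1* turned sign with marked spots kept, at -0.22, and in the authors' table, at -0.13, where another probe stood for the gene.

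**Figure D5:**
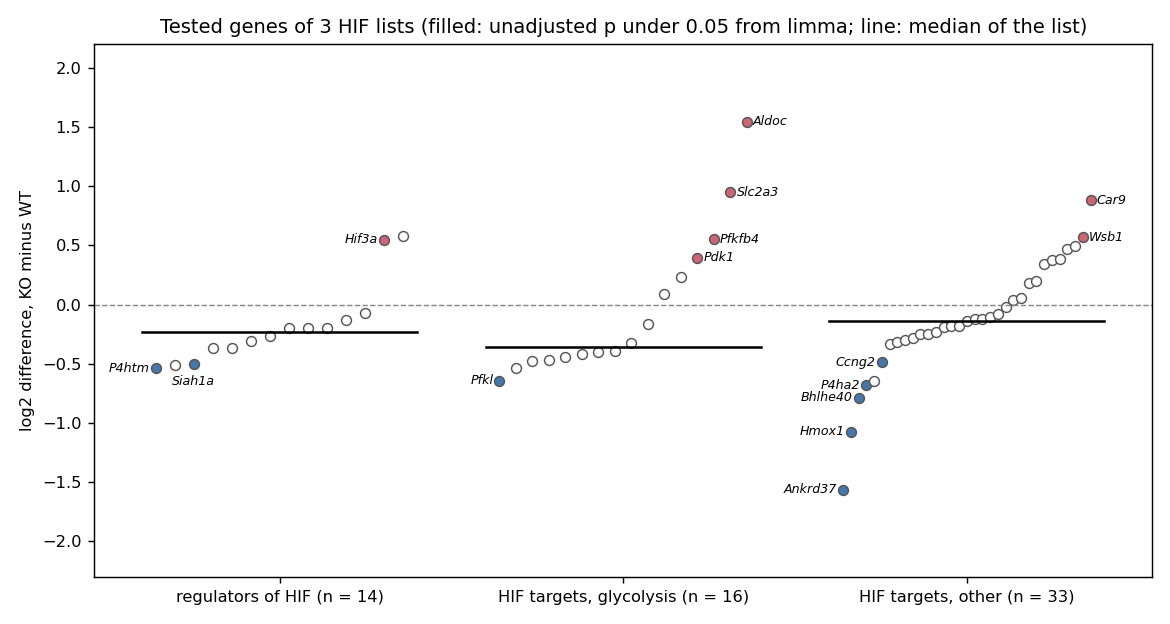
Log2 difference between KO and WT mice (y axis) of each tested gene in 3 lists of HIF regulators (14 genes), glycolytic HIF targets (16 genes) and other HIF targets (33 genes), sorted within each list, with filled points past the unadjusted threshold and a black line at the median of the list. The medians are -0.23, -0.36 and -0.14, and the genes past the threshold lie on both sides of 0, from *Ankrd37* at -1.56 to *Aldoc* at 1.54.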

How the data were processed

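RNA of BAT from 3 WT and 3 KO mice was measured with 1 dye on Agilent arrays of 1 slide. The authors deposited intensity values for each spot, per the file headers from Agilent Feature Extraction 11.5.1.1 (the submitters' notes name version 10.7), after background subtraction and detrending within the array. The authors also deposited log2 values of 27497 probes. Their normalization is not given in the sources used here, all 6 columns share a single maximum, and they served as an alternative only.

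The 10 genes and the lists were chosen with earlier results of these data known, and the groups are those of the labels. Each array was scaled to its own 75th percentile, controls excluded, and log2 was taken. Spots marked as non-uniform or as population outliers were dropped. A probe needed a signal well above background on 3 or more arrays and 2 or more unmarked values in each group. Of 56605 probes, 33767 carried a RefSeq accession matching a gene (GRCm38.p6), and among the testable probes of a gene the brightest was used. The comparison used limma 3.58.1 (lmFit and eBayes, two-sided, unpaired) in R 4.3.3, and files were read with version 1.17.8 of data.table. Thresholds were an unadjusted p of 0.05, as in the methods, and a p of 0.05 after Benjamini-Hochberg adjustment over every gene tested. Every p measures only the spread between these mice, and 3 arrays per group limit the precision. The steps were tested on simulated data.

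The text names all 10 genes with every probe, *Ucp1* and *Adipoq*, the 5 genes with the highest r with *Hif1an*, each list gene past the unadjusted threshold, and the largest rise and fall of each list among genes above background on all arrays. *Mir22hg*, *Gpi1*, *Pfkp* and *Hk1* were added after their values were seen. Alternative settings changed the scaling (quantile, or the median of detected probes), the background correction (normexp, offset 50) and the source (the authors' table). The normexp setting started from the median spot signals and was followed by quantile normalization, so it changed the scaling too. Further settings changed the dim-probe filter (none, or all 6 arrays), the marked spots (kept, also with quantile) and the choice of probe (mean per gene). The test was changed to trend and robust eBayes, SAM or the methods' t-test. Others added slide row as a block or the muscle marker mean as a covariate, or left out 1 mouse at a time.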

Additional observations from a re-analysis of the deposited data

How the results depend on the processing

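*Hif1an* stayed above 0 and past no threshold under all 20 alternatives, and *Egln3* past the unadjusted threshold wherever it could be tested. No pathway gene passed the adjusted threshold under any alternative. Signs changed for *Hif1a* (0.060 with quantile normalization, with or without marked spots, 0.011 with normexp, 0.066 in the authors' table, and -0.19 to 0.040 without each mouse, above 0 without KO2), *Epas1* (0.067 with normexp), *Arnt* (-0.13 with the slide row as a block, -0.061 to 1.80 without each mouse, below 0 without WT2) and *Vegfa* (0.096 with normexp, 0.0043 in the authors' table). The cause was not tested. The count of pathway genes that were lower, 2 as reported, was 1 with quantile normalization, with or without marked spots, normexp, the authors' table, no filter on dim probes, SAM and the methods' t-test. It was 0 with the slide row as a block (8 genes tested) or the muscle covariate, and 3 with a filter of all 6 arrays, where *Epas1* was the added gene. Leaving out each mouse gave 0 to 2 lower and 0 to 1 higher, of 7 to 9 genes tested. None was higher only without KO2 or KO3, where *Egln3* had 1 unmarked value left, and 0 were lower without WT2 or KO2. Of 14 probes, 1 was higher and 2 were lower as reported, where 9.70% and 6.73% of all 31240 probes tested were. Under other settings this share was not computed. The count of lower probes was 1 with quantile normalization, without or with marked spots (16 probes with them), normexp and the authors' table (13 probes). It was 0 with no filter on dim probes, SAM, the slide row (12 probes tested) or the muscle covariate. Leaving out each mouse gave 0 to 2 lower and 0 to 1 higher, of 12 to 14 probes. The number of list genes tested, 63 as reported, changed with the setting. Of the 63, 7 were higher as reported, against 2 of 47 with the slide row. Without each mouse 4 to 7 were higher, of 47 to 63 tested. Of all genes, 10.03% were higher as reported and 8.34 to 9.76% without each mouse. As reported 8 of the 63 were lower, where 8.81% of all genes were. The count was 5 with quantile normalization or the methods' t-test, where 10.2% and 9.35% of all genes were. With no filter on dim probes 5 of 65 were lower, with marked spots kept 13 of 75, and with the slide row 2 of 47. Without each mouse 3 to 12 were lower, with 3 of 47 without WT1 or WT2 and 12 of 52 without KO3. The median of the list genes tested, -0.20 as reported, was -0.097 and -0.099 with quantile normalization without and with marked spots. It was -0.091 with normexp, -0.065 with the slide row, and -0.23 to -0.086 without each mouse. Of these genes, 2 passed the adjusted threshold with a filter of all 6 arrays and 2 with trend and robust eBayes. Over all genes, 1476 were higher and 1296 lower, against 1146 and 1582 in the authors' table. With the slide row as a block, WT3 alone stood for WT. A smaller share of all genes then passed the unadjusted threshold in each direction than as reported. No paired analysis was possible because the labels give the groups no shared replicate numbers.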
